A study of Mus musculus with 8 samples.

Results

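Synaptic organizers are surface and secreted proteins that hold the presynaptic and the postsynaptic side of a contact together and recruit the machinery of each side. The genes described here were taken by name from 13 families of such proteins. These are the neurexins, LAR phosphatases, latrophilins, teneurins and neuroligins, the Lrrtm, Slitrk, Lrfn, Lrrc4 and Elfn leucine-rich repeat proteins, the cerebellins, the C1ql proteins and the neuronal pentraxins with their receptor. The rule names genes and uses no measured value, although it was drawn up with earlier results of these data known, and 46 of 46 genes were found among the 55414 Ensembl genes of the count files. Transcript levels came from bulk RNA-seq of dorsal root ganglia (DRG), the ganglia of the somatosensory neurons and their glia, dissected from mouse embryos at E18.5.

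The comparison asked which transcripts differ when Dach1, a transcriptional corepressor whose expression narrows to few DRG neuron subtypes during development, is expressed in all sensory neurons at late embryonic stages. Per the study, Dach1 still narrowed at first in embryos of this genotype and was then switched on again broadly. The 4 AD1 OE libraries came from AdvillinCre/+;Rosa26Dach1/+ embryos. In these, Cre at the sensory neuron gene Advillin removes a stop cassette in front of a Dach1-IRES-EGFP copy at the Rosa26 locus. The 4 Control libraries came from Advillin+/+;Rosa26Dach1/+ embryos, which have the Rosa26 allele too but lack Cre. The groups therefore also differ in Cre, in the Advillin allele that carries it and in EGFP. Differences due to these cannot be told apart from differences due to Dach1 in this design. Per the study's methods, the Rosa26Dach1 line was kept on a mixed C57Bl/6J and CD1 background. The labels give replicate numbers, and the study counts the replicates of this comparison as embryos, so p-values measure the spread between embryos of a genotype.

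A sensory neuron is presynaptic to neurons of the spinal cord, onto which its central axon makes glutamatergic synapses before birth. On the presynaptic side, neurexins and LAR phosphatases act as hub receptors that bind many postsynaptic partners. Neuroligins, Lrrtm, Slitrk and Lrfn proteins are best known as such partners, cerebellins and C1ql proteins are secreted bridges between the sides, and neuronal pentraxins gather glutamate receptors. Many genes called postsynaptic by this convention are also transcribed in neurons that mainly send out axons.

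Libraries held 22339059 to 44025625 counts assigned to genes. Dach1 was at 91.5 to 102 CPM (counts relative to the scaled library size) in AD1 OE and at 30.2 to 33.7 CPM in Control, and Avil, the gene that carries Cre, was at 449.6 to 478 against 840.4 to 919 CPM, so both followed the labels. Whether the lower Avil level affects other transcripts was not tested. All 11 sensory neuron markers and all 9 glia markers checked were detected. By their Xist and Y-linked transcripts, AD1 OE replicates 1, 2 and 4 and Control replicate 4 were male and the other 4 libraries female. Control replicates 1 and 4 carried more spinal cord transcripts than the other 6 libraries.

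Of the 46 organizer genes, 45 had enough counts to be tested, and 8 of these were called. A call required an adjusted p below 0.005 together with a log2 fold change beyond 0.25 in either direction, the thresholds in the study's results section, in edgeR's quasi-likelihood test with Benjamini-Hochberg adjustment over all 17721 tested genes. Transcripts of 7 organizers fell in AD1 OE: Cbln2, Tenm1, Lrrtm3, Ptprd, Slitrk3, Lrrc4c and Slitrk1. A single organizer rose, the secreted pentraxin Nptx1. The called share was 17.8% of the tested organizers, while 2.57% of all tested genes were called, 1.78% lower and 0.784% higher. In bulk tissue, fewer cells that carry a transcript and less of it per cell cannot be told apart.

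The changes were moderate. The called genes that fell stood at 66.1% to 82.0% of their Control mean, and Nptx1 stood at 125% of it. At a wider threshold, an adjusted p below 0.05 at any fold change, 11 organizers passed, against 6.55% of all tested genes. An unadjusted p under 0.05 was found for 18 of the 45, against 18.6% of all. For 13 organizers the 4 AD1 OE libraries did not overlap the 4 Control libraries, 10 of them below and 3 above, a pattern that 13.0% of all genes showed, 7.26% below and 5.69% above. The median log2 fold change was -0.06 over the 45 organizers, with 31 negative and 14 positive values, and 0.002 over all tested genes.

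The study's methods give another rule, stricter on the fold. With an adjusted p below 0.05 and a log2 fold change beyond 1, edgeR, DESeq2 and limma-voom each passed 0 of the organizers, against 0.728% of all genes in edgeR, and 18 organizers had an unadjusted p under 0.05 as given above. Together the organizers took 0.329% to 0.367% of the counts in AD1 OE and 0.351% to 0.365% in Control, a share that did not differ past the spread between libraries (exact permutation test, two-sided, p = 0.343, n = 4 each). The 8 called genes lay on 8 different chromosomes.

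**Figure D1:**
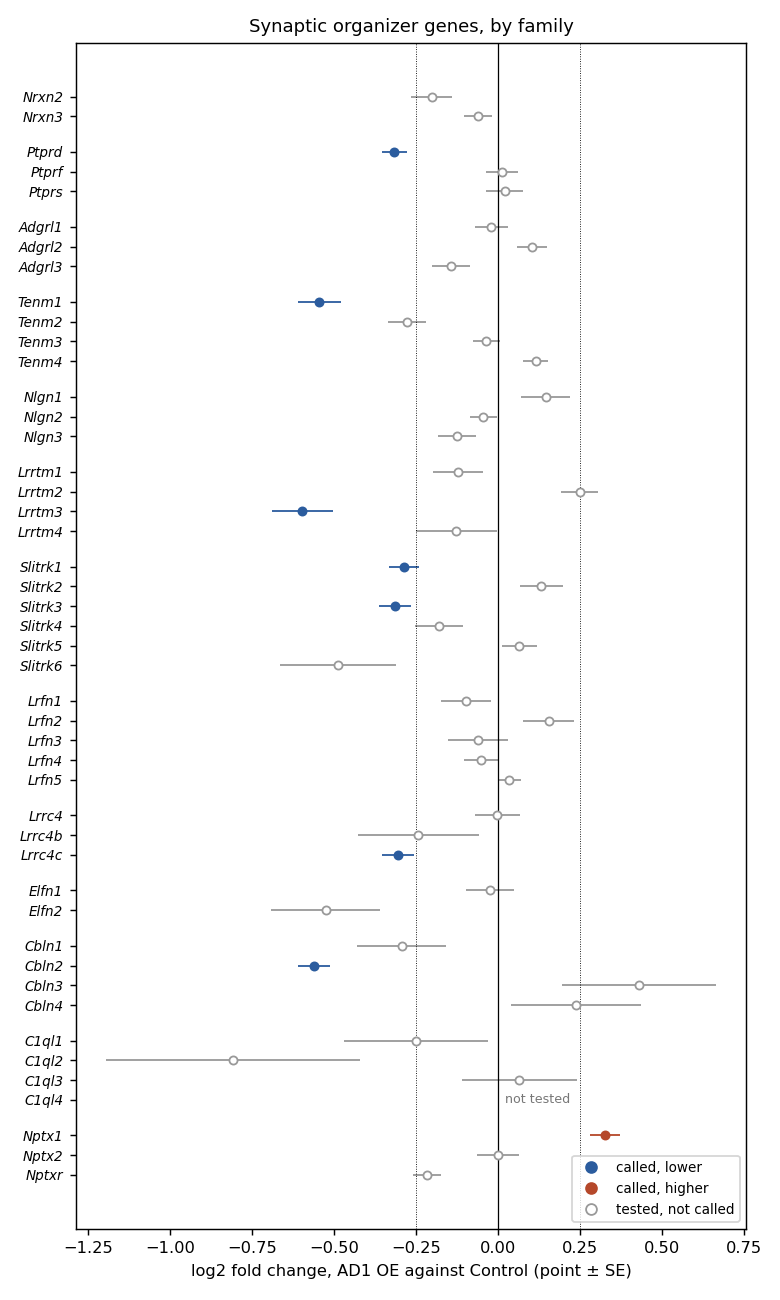
Log2 fold change (AD1 OE against Control, horizontal axis) with its standard error for each organizer gene, grouped by family, with dotted lines at the fold change threshold of 0.25 in either direction. Filled blue points mark the 7 called genes that fell, the filled red point marks Nptx1, open points were tested and not called, and C1ql4 was not tested.

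Among the presynaptic receptors, Ptprd fell and the other 4 genes were not called. Ptprd (ENSMUSG00000028399, chromosome 4) encodes the LAR phosphatase PTPδ, a receptor for Slitrk and other postsynaptic proteins. Its level was 67.5, 62.3, 66.6 and 65.9 CPM in AD1 OE replicates 1 to 4 and 82.3, 79.6, 81.3 and 83.7 CPM in Control replicates 1 to 4. Every AD1 OE library lay below every Control library, with a gap wider than the range of either group. The log2 fold change was -0.32 ± 0.04 (SE, edgeR adjusted p = 2.71e-04).

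The related phosphatases showed no such difference. Ptprf, which encodes LAR itself and had the highest level per length of all 46 genes, was at 575, 527, 600.2 and 577 CPM in AD1 OE and at 555, 589, 544 and 572 CPM in Control. The groups overlapped, and the log2 fold change of Ptprf was 0.01 ± 0.05 (SE, edgeR adjusted p = 0.933). Ptprs (PTPσ) was at 403 to 491 CPM in AD1 OE and 435 to 451 CPM in Control, with a log2 fold change of 0.02 (adjusted p = 0.895). Counting within each library needs no scaling. There were 6.47 to 7.38 Ptprs counts for each Ptprd count in AD1 OE and 5.20 to 5.58 in Control. Such ratios, here and below, set a called gene against another organizer whose values are also given. They restate those values and are no separate evidence.

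Neither of the neurexin genes was called. Nrxn2, the more abundant per length, was at 215, 199, 241 and 216 CPM in AD1 OE and at 259, 271, 229 and 244 CPM in Control. AD1 OE replicate 3 lay inside the Control range and the other 3 AD1 OE libraries lay below it, and the log2 fold change of Nrxn2 was -0.20 ± 0.06 (SE, edgeR adjusted p = 0.0931). Nrxn3 was at 54.6 to 58.4 CPM in AD1 OE and 57.5 to 62.1 CPM in Control, with a log2 fold change of -0.06 (adjusted p = 0.491).

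Teneurins are large transmembrane proteins that bind latrophilins across the cleft and guide the matching of partner neurons. Tenm1 (ENSMUSG00000016150, chromosome X) was at 36.9, 33.5, 30.9 and 32.4 CPM in AD1 OE and at 45.4, 51.6, 46.7 and 51.5 CPM in Control. The gap between the groups was wider than the range of either. The log2 fold change of Tenm1 was -0.55 ± 0.07 (SE, edgeR adjusted p = 2.72e-04). Since Tenm1 is X-linked and the groups differed in sex, it was also read within each sex. In females the AD1 OE library was at 30.9 CPM and the Control libraries at 45.4 to 51.6 CPM, and in males the AD1 OE libraries were at 32.4 to 36.9 CPM and the Control library at 51.5 CPM. With a sex score as a covariate, the log2 fold change of Tenm1 was -0.62 (edgeR adjusted p = 2.03e-04). Tenm1 shares 1465 exon bases with Sh2d1a on the opposite strand, which was at no more than 0.384 CPM in any library.

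The other teneurins moved less. Tenm2 was at 40.6, 35.9, 34.9 and 37.0 CPM in AD1 OE and at 42.3, 47.7, 43.5 and 46.5 CPM in Control. Its groups did not overlap, but its log2 fold change of -0.28 ± 0.06 (SE) missed the call (edgeR adjusted p = 0.0144). Tenm3, the most abundant teneurin per length, was at 127, 119.7, 114 and 114 CPM in AD1 OE and at 120.0, 124, 123 and 119 CPM in Control, with a log2 fold change of -0.04 ± 0.04 (SE, edgeR adjusted p = 0.699). For each Tenm1 count a library held 3.45 to 3.68 Tenm3 counts in AD1 OE and 2.32 to 2.65 in Control. Tenm4 was higher in AD1 OE, at 89.1 to 95.7 CPM against 81.2 to 86.7 CPM, and its log2 fold change of 0.11 was not called (adjusted p = 0.109).

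The latrophilins, adhesion G protein-coupled receptors that bind teneurins, were not called. Adgrl1, the most abundant of them per length, was at 300.5, 271, 321 and 290.4 CPM in AD1 OE and at 298, 309, 293 and 299.6 CPM in Control, with a log2 fold change of -0.02 ± 0.05 (SE, edgeR adjusted p = 0.880). Adgrl2 and Adgrl3 had an unadjusted p under 0.05 and log2 fold changes of 0.10 and -0.14, with adjusted p-values of 0.246 and 0.198. The sign of the Adgrl1 value was not stable under other settings.

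Of the 23 genes for postsynaptic partners, 4 fell and none rose, although 6 had a positive log2 fold change and 1 of these, Lrrtm2, had an adjusted p under 0.05. The called share was 17.4% of these 23 genes, against 1.78% of all tested genes called lower. All 4 that fell encode surface proteins with leucine-rich repeats outside the cell. By the choice of families, so does every gene of this class except the neuroligins, and most of those genes were not called. Lrrtm3 encodes a neurexin partner, Slitrk1 and Slitrk3 encode partners of LAR phosphatases, and Lrrc4c encodes NGL-1, the partner of netrin-G1. Their upstream sequences are shown because these genes fell together and belong to related proteins. RefSeq promoter windows on GRCm38.p6 were matched by symbol and had an entry for 33 of the 46 organizers and for 5 of the 8 called genes. The 250 bases before the annotated start of each gene are printed 5′ to 3′ on the gene's own strand, at chr10:64090256-64090505 (minus strand) for Lrrtm3, chr14:108914240-108914489 (minus) for Slitrk1, chr3:73057067-73057316 (minus) for Slitrk3 and chr2:96317919-96318168 (plus) for Lrrc4c. Capitals mark matches on either strand to the E-box CANNTG or to the CCAAT box.
Lrrtm3: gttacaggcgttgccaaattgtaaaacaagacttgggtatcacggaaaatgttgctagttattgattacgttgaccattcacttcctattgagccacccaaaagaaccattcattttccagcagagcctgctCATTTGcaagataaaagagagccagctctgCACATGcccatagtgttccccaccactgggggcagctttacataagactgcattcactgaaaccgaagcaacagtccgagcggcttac
Slitrk1: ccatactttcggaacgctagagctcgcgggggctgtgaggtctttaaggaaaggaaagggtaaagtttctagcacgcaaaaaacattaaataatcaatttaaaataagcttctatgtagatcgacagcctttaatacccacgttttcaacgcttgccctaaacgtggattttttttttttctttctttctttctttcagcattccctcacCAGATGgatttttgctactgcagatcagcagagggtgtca
Slitrk3: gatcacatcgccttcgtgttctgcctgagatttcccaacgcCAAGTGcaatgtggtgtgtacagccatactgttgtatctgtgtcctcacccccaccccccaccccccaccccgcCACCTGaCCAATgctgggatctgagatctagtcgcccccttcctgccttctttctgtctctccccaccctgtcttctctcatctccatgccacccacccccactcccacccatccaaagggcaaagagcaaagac
Lrrc4c: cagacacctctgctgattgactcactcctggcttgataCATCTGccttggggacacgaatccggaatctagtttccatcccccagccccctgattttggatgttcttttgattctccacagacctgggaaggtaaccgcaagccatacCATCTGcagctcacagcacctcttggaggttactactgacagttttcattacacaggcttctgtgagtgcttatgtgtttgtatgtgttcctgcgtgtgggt

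Each of the 4 windows held an E-box, 2 of them in Lrrtm3, 1 in Slitrk1, 2 in Slitrk3 and 2 in Lrrc4c, but so did 66.2% of all 32851 windows of that length. The CCAAT box was found in the Slitrk3 window and in 33.8% of all. The TATA box TATAAA and the GC box GGGCGG, found in 12.4% and 32.7% of all windows on either strand, had no match in the 4 windows. The GC content of the windows was 46% for Lrrtm3, 40.4% for Slitrk1, 57.6% for Slitrk3 and 49.6% for Lrrc4c, with 52.4% as the median of all windows. Tenm1, the other called gene with an entry, fell as well, and its window, not printed here, differed from these. It held 4 matches to the TATA box and 1 E-box, and its GC content was 27.2%. A match is a run of letters in the window and was not tested as a binding site.

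Lrrtm3 (ENSMUSG00000042846, chromosome 10) had the largest fall in proportion among the called genes. It was at 9.81, 12.4, 9.60 and 11.5 CPM in AD1 OE and at 14.5, 17.5, 16.7 and 16.5 CPM in Control, so that the groups did not overlap. Its log2 fold change was -0.60 ± 0.09 (SE, edgeR adjusted p = 0.00178). The call was lost in 4 of the 8 fits that left out 1 library, since the adjusted p of Lrrtm3 was 0.00873 without AD1 OE replicate 1 and 0.00860, 0.00716 and 0.00685 without Control replicates 2, 3 and 4. Over 17 alternative fits its log2 fold change stayed between -0.67 and -0.54.

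Lrrtm2, which encodes another neurexin partner of the same family, differed in the opposite direction. It was at 41.2, 40.5, 40.0 and 45.0 CPM in AD1 OE and at 32.3, 36.2, 37.2 and 34.6 CPM in Control. The groups did not overlap, but the log2 fold change of 0.25 ± 0.06 (SE) missed the call (edgeR adjusted p = 0.0224). Within a library there were 3.26 to 4.20 Lrrtm2 counts for each Lrrtm3 count in AD1 OE and 2.07 to 2.23 in Control. Lrrtm2 lies opposite Ctnna1, with 95 shared exon bases, and Ctnna1 was at 206 to 234 CPM. Lrrtm1, the most abundant of the family per length, was at 25.7, 28.0, 28.5 and 26.9 CPM in AD1 OE and at 34.6, 28.7, 28.9 and 26.8 CPM in Control, with a log2 fold change of -0.12 ± 0.08 (SE, edgeR adjusted p = 0.428). Lrrtm4 was at 5.00 to 7.04 CPM and 5.62 to 7.11 CPM, and its groups overlapped.

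Slitrk3 (ENSMUSG00000048304, chromosome 3) was the most abundant Slitrk gene per length. Its level was 60.7, 56.6, 53.7 and 58.3 CPM in AD1 OE and 70.4, 75.7, 69.1 and 70.2 CPM in Control. The highest AD1 OE library lay below the lowest Control library. The log2 fold change of Slitrk3 was -0.31 ± 0.05 (SE, edgeR adjusted p = 0.00151). The adjusted p rose above 0.005 when AD1 OE replicate 2 (0.00679) or 4 (0.00616) or Control replicate 2 (0.00680) or 4 (0.00535) was left out.

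Slitrk1 (ENSMUSG00000075478, chromosome 14) was at 47.4, 44.7, 46.9 and 44.5 CPM in AD1 OE and at 59.6, 56.4, 54.3 and 53.9 CPM in Control. The groups did not overlap, and the log2 fold change was -0.29 ± 0.05 (SE, edgeR adjusted p = 0.00248). Without any single one of the 8 libraries Slitrk1 was no longer called, with adjusted p-values from 0.00535 to 0.0127, while its log2 fold change stayed between -0.30 and -0.25.

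Of the other Slitrk genes, none was called. Slitrk2 was at 78.5 to 82.7 CPM in AD1 OE and 62.9 to 80.7 CPM in Control, and each library held 1.67 to 1.85 Slitrk2 counts for each Slitrk1 count in AD1 OE and 1.17 to 1.49 in Control. Slitrk4 had a log2 fold change of -0.18 (edgeR adjusted p = 0.206) and Slitrk5 one of 0.06 (0.582). Slitrk6 was the least abundant, at 1.22 to 1.72 CPM in AD1 OE and 1.81 to 2.74 CPM in Control, without overlap, and its log2 fold change of -0.49 was not called (adjusted p = 0.150).

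Lrrc4c (ENSMUSG00000050587, chromosome 2) was at 26.8, 26.999, 26.5 and 25.7 CPM in AD1 OE and at 34.6, 32.3, 32.5 and 31.8 CPM in Control. The AD1 OE libraries spanned little more than 1 CPM and lay below all Control libraries. The log2 fold change was -0.30 ± 0.05 (SE, edgeR adjusted p = 0.00209). Lrrc4c, too, lost its call without any single library, with adjusted p-values from 0.00541 to 0.0112. Of its relatives, Lrrc4 (NGL-2) was at 10.2 to 11.5 CPM and 10.4 to 11.5 CPM, and Lrrc4b (NGL-3) was at 10.02 to 16.9 CPM and 12.5 to 21.6 CPM, both with overlapping groups.

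**Figure D2:**
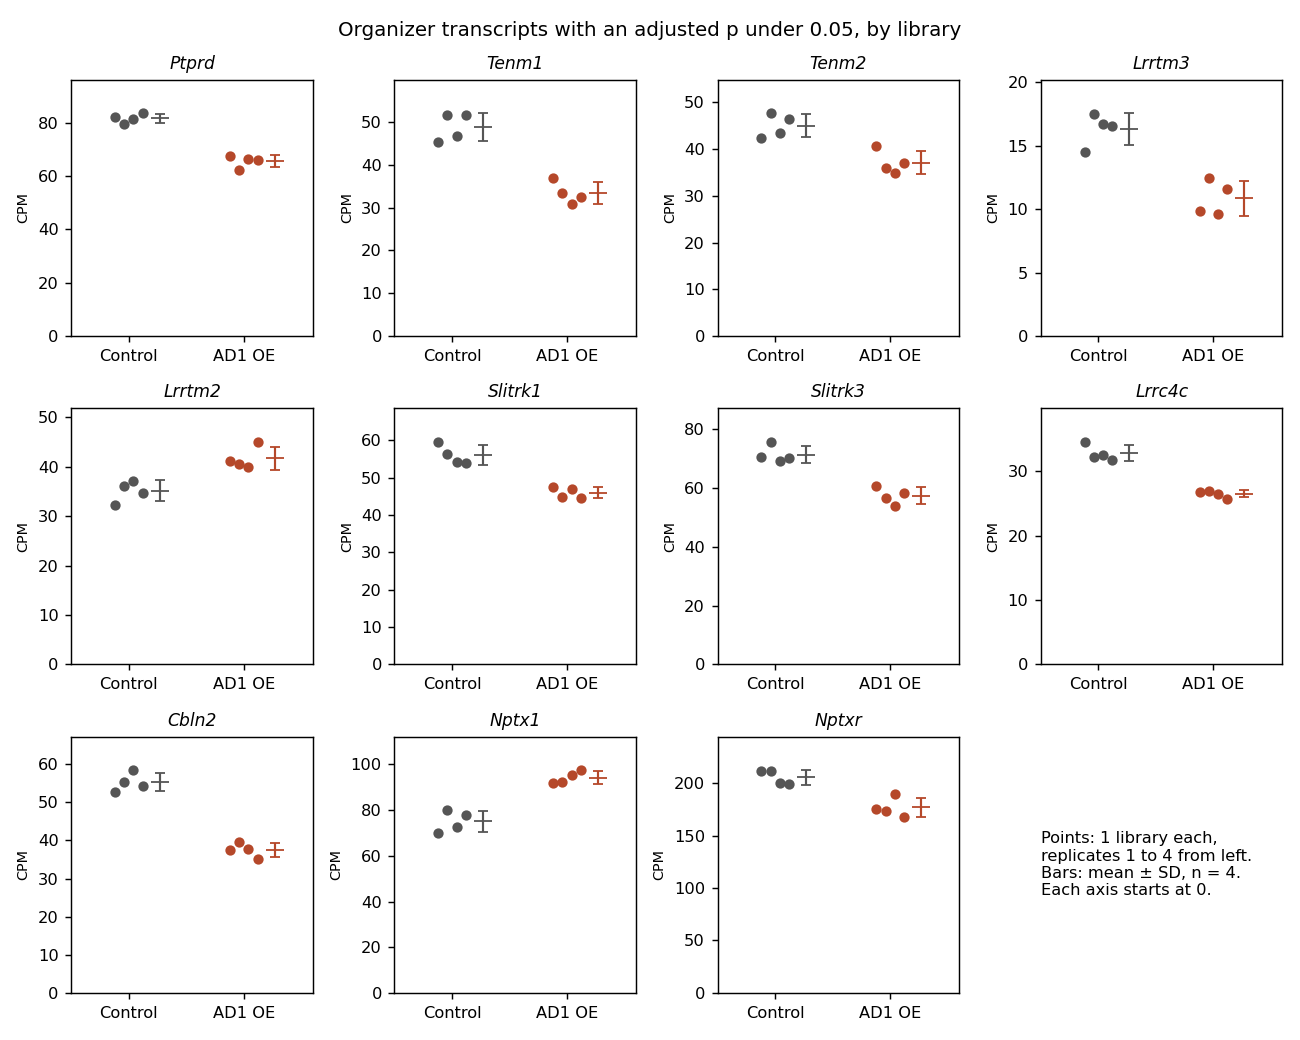
Level of the 11 organizer transcripts with an adjusted p under 0.05, in CPM (vertical axes from 0), for each Control and AD1 OE library, with the mean ± SD of 4 libraries beside the points. In every panel the groups are separated, with AD1 OE higher for Nptx1 and Lrrtm2 and lower for the other 9.

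The neuroligins, Lrfn and Elfn genes had no called member. Nlgn2, which encodes the neuroligin of inhibitory contacts, was the most abundant neuroligin per length, at 188, 176, 203 and 192 CPM in AD1 OE and 194, 196, 194 and 201 CPM in Control. Its log2 fold change was -0.05 ± 0.04 (SE, edgeR adjusted p = 0.632). Nlgn1 and Nlgn3 had log2 fold changes of 0.14 and -0.12 (adjusted p = 0.327 and 0.277). Nlgn3 shares 3823 of its 9271 exon bases with Gm21986 on the same strand, and reads in that stretch could be assigned to neither or either gene, so its count is uncertain.

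Lrfn proteins (SALMs) and Elfn proteins are further leucine-rich repeat proteins, and Elfn1 and Elfn2 bind metabotropic glutamate receptors across the cleft. Lrfn4 was at 92.6, 84.0, 100.9 and 87.4 CPM in AD1 OE and at 98.9, 96.3, 91.6 and 91.5 CPM in Control, with a log2 fold change of -0.05 ± 0.05 (SE, edgeR adjusted p = 0.679). The other Lrfn genes had log2 fold changes from -0.10 to 0.15, all with overlapping groups. Elfn1 was at 22.2, 20.3, 25.1 and 22.3 CPM in AD1 OE and at 21.4, 23.5, 21.9 and 24.6 CPM in Control, with a log2 fold change of -0.02 ± 0.07 (SE, edgeR adjusted p = 0.906). Elfn2 varied more, at 6.01 to 9.18 CPM and 7.94 to 13.0 CPM, with a log2 fold change of -0.53 ± 0.17 (SE) that was not called (adjusted p = 0.0981).

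Among the secreted organizers, Cbln2 fell and Nptx1 rose. Cbln2 (ENSMUSG00000024647, chromosome 18) encodes a cerebellin that bridges presynaptic neurexins and postsynaptic GluD receptors. It was at 37.4, 39.5, 37.7 and 35.2 CPM in AD1 OE and at 52.8, 55.4, 58.4 and 54.4 CPM in Control. The gap between the groups was wider than the range of either, and AD1 OE stood at 67.8% of Control. The log2 fold change of Cbln2 was -0.56 ± 0.05 (SE) and its edgeR adjusted p of 2.90e-05 was the lowest among the organizers.

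Cbln2 made up most of the cerebellin transcripts. Per length it was at 19.1 CPM per kb of exon in Control, with Cbln1 at 1.82, Cbln4 at 1.73 and Cbln3 at 0.252. The other cerebellins were not called, with log2 fold changes of -0.29 for Cbln1, 0.24 for Cbln4 and 0.43 for Cbln3 and standard errors of 0.14, 0.20 and 0.24. For each Cbln2 count a library held 4.46 to 5.46 counts of Nlgn2 in AD1 OE and 3.31 to 3.69 in Control.

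Nptx1 (ENSMUSG00000025582, chromosome 11) encodes a secreted pentraxin that clusters AMPA-type glutamate receptors. It was at 91.8, 92.3, 95.4 and 97.5 CPM in AD1 OE and at 69.8, 80.0, 72.7 and 77.9 CPM in Control. All AD1 OE libraries lay above all Control libraries, and the log2 fold change was 0.33 ± 0.05 (SE, edgeR adjusted p = 9.96e-04). It kept its call without any 1 of the 8 libraries. With the sex score as a covariate Nptx1 was not called (0.31, adjusted p = 0.00771).

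The membrane-bound pentraxin receptor differed in the other direction. Nptxr was at 176, 174, 189.7 and 168 CPM in AD1 OE and at 211, 212, 199.9 and 199 CPM in Control, without overlap. Its log2 fold change of -0.22 ± 0.04 (SE) passed neither threshold of the call (edgeR adjusted p = 0.00818). With the sex score as a covariate it was -0.16 (adjusted p = 0.0745). Nptxr shares 890 exon bases with Npcd on its own strand, and Npcd was at 0 in all 8 libraries. Within a library the Nptx1 count was 0.503 to 0.580 of the Nptxr count in AD1 OE and 0.330 to 0.391 of it in Control. Nptx2, the other secreted pentraxin, was at 122, 106, 130.5 and 116 CPM in AD1 OE and at 132, 118, 112 and 115 CPM in Control, and its log2 fold change of -0.001 had a standard error of 0.06 (edgeR adjusted p = 0.995).

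The C1ql proteins bind the adhesion receptor Adgrb3 and were the least abundant family. C1ql3 was at 4.39, 5.57, 3.98 and 3.99 CPM in AD1 OE and at 5.49, 3.21, 4.91 and 3.64 CPM in Control, with a log2 fold change of 0.07 ± 0.17 (SE, edgeR adjusted p = 0.891). C1ql1 was at 0.891 to 1.95 CPM in AD1 OE and 1.53 to 2.06 CPM in Control, with overlapping groups. C1ql2 held 4 to 16 counts per library and C1ql4 held 3 to 15, and at this depth a difference in C1ql4 was not tested and one in C1ql2 was not detectable (log2 fold change -0.81, standard error 0.39, adjusted p = 0.292).

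The levels of different genes can be set side by side only per length, here as CPM per kb of exon. In Control, Ptprf led with 61.8 ± 2.17 (SD, n = 4), followed by Nptx2 with 47.0 ± 3.43, Nptxr with 39.8 ± 1.33, Adgrl1 with 34.9 ± 0.820, Nlgn2 with 33.9 ± 0.566, Ptprs with 29.5 ± 0.456 and Lrfn4 with 28.1 ± 1.08. The mean ± SD of Adgrl1 overlapped that of Nlgn2, as did that of Ptprs and Lrfn4. All genes were measured in the same libraries, and the order within these pairs was not tested. The median over the 46 genes was 5.57, and C1ql4 was lowest with 0.120 ± 0.0575. None of these 7 genes was called, but the next in order, Cbln2 with 19.1, was. Slitrk3, Nptx1 and Slitrk1, at ranks 10, 12 and 14, were called as well. Of the called genes, Cbln2 was the most abundant per length in Control and Tenm1 the least, at 2.75 ± 0.183.

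**Figure D3:**
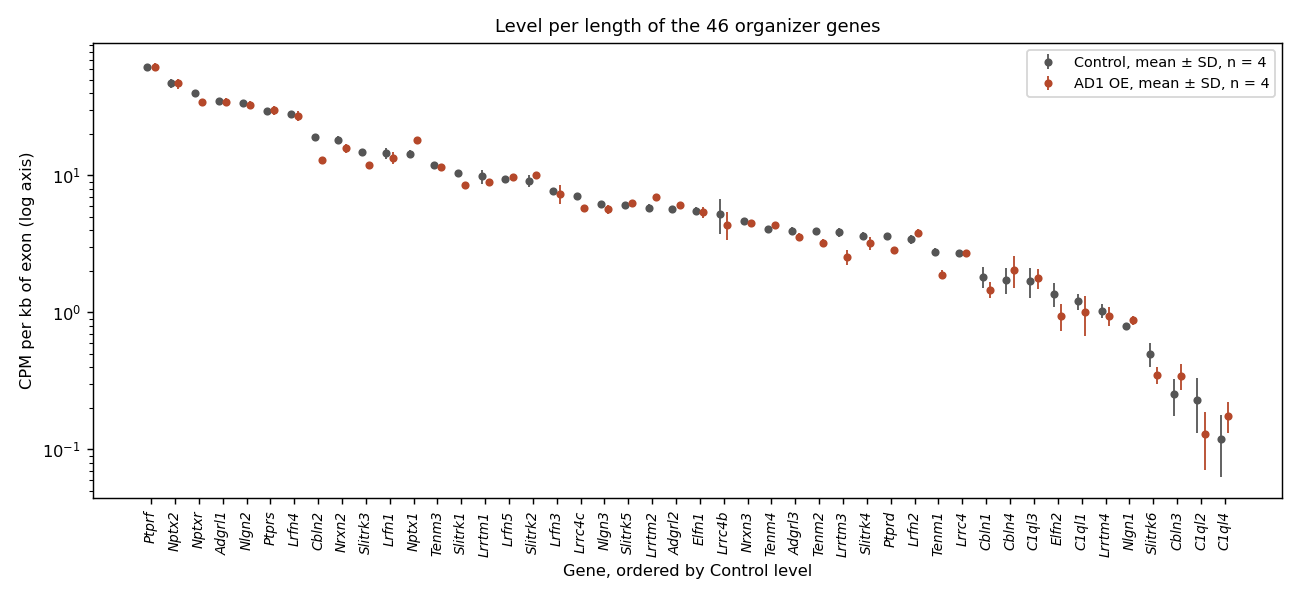
Level of each organizer gene in CPM per kb of exon (vertical log axis), ordered by its Control mean, with the mean ± SD of 4 libraries for Control (grey) and AD1 OE (red). The order runs from Ptprf at 61.8 to C1ql4 at 0.120 in Control, and most pairs of points overlap, with visible gaps at Cbln2, Lrrtm3, Tenm1 and Nptx1.

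The called genes were compared with the rest in features that no rule had used. The 7 genes that fell had a median GC content of 44.5% and a median genomic span of 161.8 kb, against 53.2% and 26.8 kb for the 37 tested organizers not called and 49.5% and 20.8 kb for all tested genes. The group was mixed, since Slitrk1 spans 5.36 kb and Cbln2 spans 7.17 kb. With offsets for GC content per library, a setting added after the data were seen, 8 organizers were called, against 2.81% of all genes. These values are a description of the called genes and were not tested.

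The proteins that bind organizers or anchor them inside the cell were read from a separate list of 57 genes, 56 of which were tested. Of these, 2 fell and none rose (3.57%, against 2.57% of all genes). This count depended on the test: DESeq2 called 8 partners (14.0%, against 3.53% of all genes), 2 lower and 6 higher, and edgeR without the expression filter called the same 8 (14.0%, against 2.05%). The groups did not overlap for 5 partner genes that were lower and 8 that were higher, against 7.26% and 5.69% of all genes. An adjusted p under 0.05 was reached by 11 partners, against 6.55% of all genes, and an unadjusted p under 0.05 by 20, against 18.6%. The median log2 fold change over the partners was -0.03. Cadm2 encodes a SynCAM adhesion protein and was at 80.1, 91.8, 76.7 and 82.7 CPM in AD1 OE and at 104, 119, 119 and 119.7 CPM in Control. No AD1 OE library of Cadm2 reached the Control range, and the log2 fold change was -0.48 ± 0.06 (SE, edgeR adjusted p = 3.56e-04). Dlg2 encodes the scaffold protein PSD-93 and was at 25.5, 25.9, 23.1 and 26.8 CPM in AD1 OE and at 33.2, 35.3, 34.1 and 34.8 CPM in Control. Its groups did not overlap either, and its log2 fold change was -0.44 ± 0.05 (SE, edgeR adjusted p = 3.86e-04).

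The other 9 partner genes with an adjusted p under 0.05 were not called by edgeR, and all 9 are named here after their values were seen. Of these, 6 were higher in AD1 OE, and they are the 6 that DESeq2 called higher. Grid1, which encodes the cerebellin receptor GluD1, was at 10.6 to 11.6 CPM in AD1 OE and 7.34 to 9.90 CPM in Control (log2 fold change 0.39, edgeR adjusted p = 0.0232). Flrt3, a latrophilin ligand, was at 32.1 to 37.6 CPM and 25.0 to 30.1 CPM (0.32, adjusted p = 0.0184). Nxph3, a secreted neurexin ligand, was at 2.12 to 4.17 CPM and 1.38 to 1.89 CPM (1.04, adjusted p = 0.00817). The higher group also held the scaffold genes Homer1 (0.26, edgeR adjusted p = 0.0116) and Homer2 (0.30, 0.0166). Its last member was Ntrk3, the neurotrophin receptor TrkC and a PTPσ partner (0.30, edgeR adjusted p = 0.0171). The study reports the TrkC gene as not deregulated in this comparison, whereas DESeq2 at the call thresholds called Ntrk3 here. By immunostaining, the study reports that the main neuron subtypes, with TrkC among the markers counted, arose in appropriate numbers.

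The 3 that were lower encode proteins inside the cell. Ppfia2, which encodes the LAR phosphatase binder liprin-α2, was at 111 to 122 CPM in AD1 OE and 128 to 137 CPM in Control (log2 fold change -0.20, edgeR adjusted p = 0.00746). Apba2, which encodes the adaptor Mint2, had a log2 fold change of -0.15 (adjusted p = 0.0407), and so did Dlgap4, a scaffold gene (-0.15, 0.0472). For all 9 genes the groups did not overlap.

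**Figure D4:**
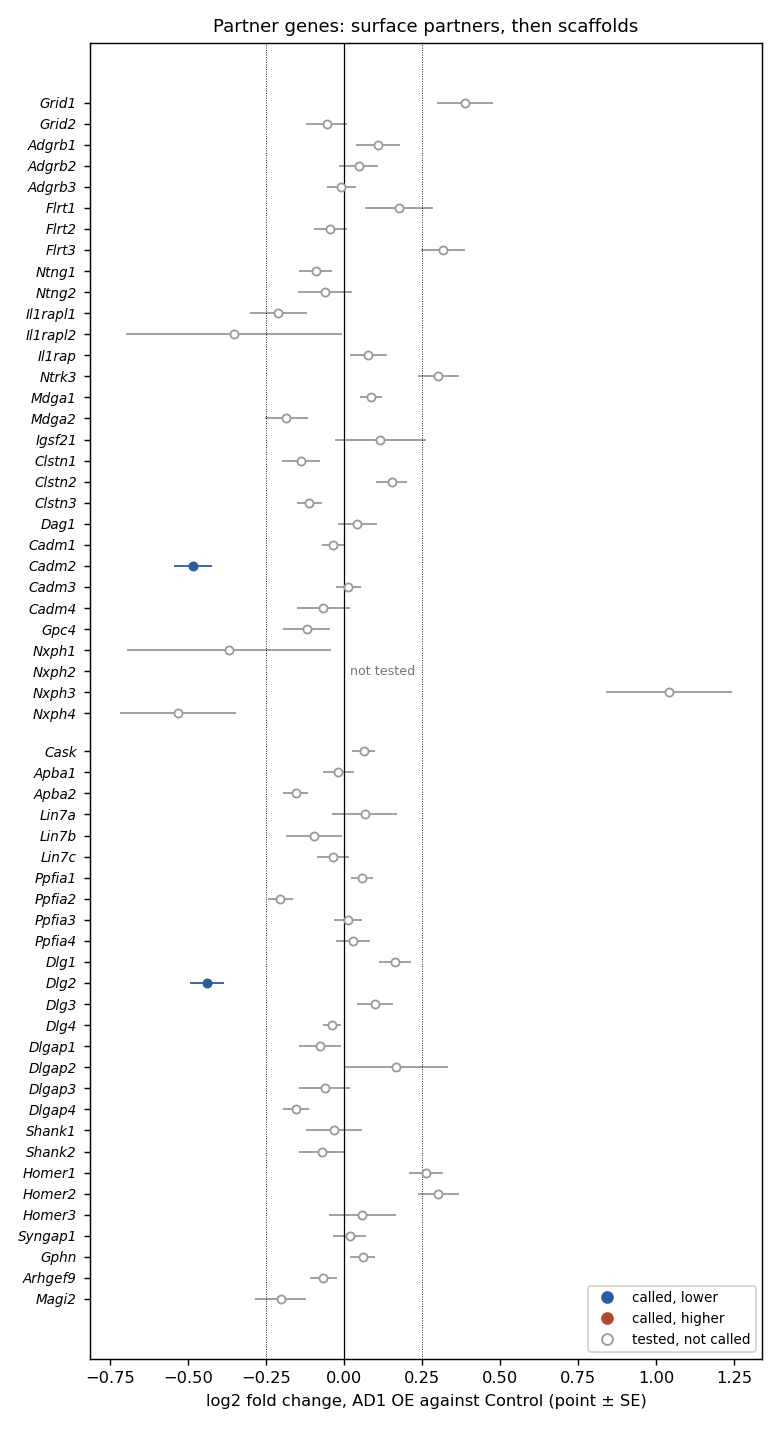
Log2 fold change (AD1 OE against Control, horizontal axis) with its standard error for the 57 partner genes, surface partners above and intracellular scaffolds below, with dotted lines at 0.25 in either direction. Cadm2 and Dlg2 are the 2 called genes, both lower, and Nxph2 was not tested.

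Markers of the cell types in and around the ganglia were summed per library to see what moved with the organizers. The 11 sensory neuron markers summed to 11215 to 11851 CPM in AD1 OE and to 11890.4 to 12443 CPM in Control, a log2 ratio of -0.09 (exact permutation test, two-sided, p = 0.0286, the smallest the design can give, and 0.229 adjusted over 8 marker lists). Without Avil, whose own level follows the genotype, the other 10 gave -0.04 (exact permutation p = 0.114). The sums for glia, fibroblasts, endothelium, skeletal muscle, erythroid cells and macrophages had exact p-values of 0.571, 0.0857, 0.886, 1, 0.571 and 0.143, and none of their markers was called.

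The spinal cord list moved with libraries of the Control group. Of its 13 markers 8 were tested and 0 were called, although all 8 had a negative log2 fold change, and Lbx1, Chat and Mnx1 were at 0 in some libraries. Without Slc1a3, which satellite glia also express, the sum was 5.88, 5.39, 10.2 and 7.23 CPM in AD1 OE and 28.8, 4.70, 7.70 and 17.3 CPM in Control. Control replicate 1 was also the highest library of Lrrc4b (21.6 CPM) and Cbln1 (6.97 CPM). Among the called genes it was the highest library of Slitrk1 (59.6 CPM) and Lrrc4c (34.6 CPM). It was the lowest Control library for Cbln2 (52.8 CPM), Tenm1 (45.4 CPM), Lrrtm3 (14.5 CPM) and Nptx1 (69.8 CPM). For Ptprd and Slitrk3 it lay between other Control libraries. The part of spinal cord transcripts in these levels was not tested. Without Control replicates 1 and 4, a setting added after the data were seen that leaves 2 Control libraries, Cbln2 (log2 fold change -0.60, edgeR adjusted p = 3.80e-04) and Tenm1 (-0.55, 0.00318) stayed called. The other called genes lost their call, with adjusted p-values from 0.00661 for Lrrtm3 to 0.0263 for Lrrc4c and a background of 1.39% of all genes. Their log2 fold changes were close to those in all 8 libraries, at -0.66 for Lrrtm3, -0.29 for Ptprd, -0.33 for Slitrk3, -0.27 for Slitrk1, -0.28 for Lrrc4c and 0.31 for Nptx1. This setting also removed the male Control library, replicate 4, and left only female Control libraries, while AD1 OE libraries of both sexes stayed in. The part of sex in these values was not tested.

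**Figure D5:**
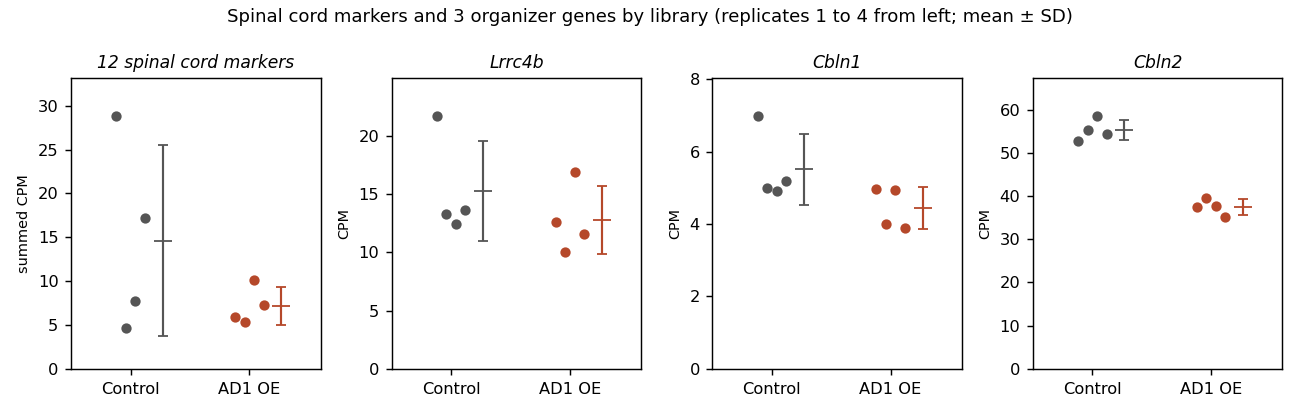
Summed level of 12 spinal cord markers (without Slc1a3) and level of Lrrc4b, Cbln1 and Cbln2, in CPM (vertical axes from 0), for each Control and AD1 OE library, with the mean ± SD of 4 libraries. Control replicate 1, the leftmost point, is the highest library for the markers (28.8), Lrrc4b (21.6) and Cbln1 (6.97), and is not for Cbln2.

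The count of called organizers varied between settings. DESeq2 called 9 organizers, the 8 given above and Tenm2, against 3.53% of all genes, and limma-voom called 8, against 2.58%. Without the expression filter edgeR called 11, against 2.05%, and with the replicate number as a block 6, against 1.96%. With the sex score as a covariate 5 were called, all lower (Cbln2, Tenm1, Ptprd, Lrrtm3 and Slitrk3), against 1.84% of all genes. Leaving out 1 library left 4 to 6 called organizers, against 1.61% to 2.33% of all genes, and Cbln2, Tenm1, Ptprd and Nptx1 were called in each of those 8 fits. Over 17 alternative fits, all 8 called genes kept their direction.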

How the data were processed

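Total RNA from DRG was made into poly(A) libraries and sequenced. Per the submitters' processing notes, STAR 2.7.8a, featureCounts 2.0.1 and bcl2fastq 2.20.0.422 were used with GRCm39. The authors deposited 1 file of raw counts per library for 55414 Ensembl genes, neither normalized nor filtered. Whether counting used the strand is not given in the sources used here.

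Counts were tested in R 4.3.3 with edgeR 4.0.16 (filterByExpr, TMM, glmQLFit and glmQLFTest with genotype alone, Benjamini-Hochberg adjustment over 17721 genes). The common biological coefficient of variation was 8.22%. The SE of an edgeR log2 fold change was its absolute value divided by the square root of its F statistic. CPM used TMM-scaled library sizes of the filtered counts and are given as mean ± SD or per library. Gene names, exon lengths, shared exons and GC content came from GENCODE M21 on GRCm38, an older build, and promoters from RefSeq on GRCm38.p6, so no coordinate was carried to GRCm39. Within groups, each pair of libraries differed beyond counting noise (chi-square per degree of freedom from 4.34 to 12.2), so each library counted as 1. Reads carried no molecular identifiers, so precision from counts covers counting error only.

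The members, the partner and marker lists and the tests were chosen with earlier results of these data known. Full values were given for members that were called, had an adjusted p under 0.05 or led their family per length, and for called partner genes. The sex score sets the summed Y-linked transcripts (Uty, Kdm5d, Eif2s3y, Ddx3y) against Xist on a log2 scale. Alternatives were DESeq2 1.42.0, limma-voom (limma 3.58.1), RLE factors, no filter or 1 CPM in at least 4 libraries, the sex score, the replicate number as a block, other thresholds and leaving out each library. Leaving out Control replicates 1 and 4 together, GC offsets (loess, span 0.3) and sensory neuron markers without Avil were added after seeing the data. The count ratios within libraries were not among the planned results.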

Additional observations from a re-analysis of the deposited data

Results flagged for a closer look

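In 6 of 90 groups of 4 libraries, that is 6.67%, a single library stood far from the other 3, with a gap above Dixon's 95% critical share of the range of the group, and chance gives this in about 1 in 20 groups. Control replicate 1 was the highest Control library for Nrxn3, at 62.1 CPM with the others at 57.5 to 58.1, for Lrrc4b, at 21.6 CPM with the others at 12.5 to 13.6, and for Cbln1, at 6.97 CPM with the others at 4.91 to 5.20. The same library had the highest sum of spinal cord markers, and the part of these transcripts in its Lrrc4b and Cbln1 levels was not tested. In AD1 OE replicate 3 Nlgn1 was lowest, at 10.4 CPM with the others at 12.1 to 12.3. Slitrk5 was at 30.8 CPM in AD1 OE replicate 4 with the others at 33.6 to 34.2, and at 33.9 CPM in Control replicate 2 with the others at 30.7 to 31.1. None of these 5 genes was called.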

How the results depend on the processing

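Against 8 called organizers (7 lower, 1 higher), 2 partner genes and 455 genes in all, the sex score as a covariate left 5 organizers (0 higher), and leaving out Control replicates 1 and 4, added after seeing the data, left 2 (2 lower, 0 higher), 1 partner gene and 254 genes. Without the expression filter there were 11 organizers (2 higher), 8 partner genes and 747 genes, and DESeq2 called 8 partner genes. An adjusted p under 0.05 with any fold gave 11 organizers (2 higher), 11 partner genes and 1161 genes, and with an absolute log2 fold change over 1 it gave 0 organizers, lower or higher, 1 partner gene (Nxph3) and 129 genes. Leaving out 1 library gave 4 to 6 organizers (3 to 5 lower, 1 higher), 2 to 3 partner genes and 289 to 420 genes, lowest for organizers without Control replicate 2 or 4. The cause of these differences was not tested beyond the smaller number of libraries.

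The replicate numbers did not pair the libraries: the correlations of same-numbered deviations were -0.010, -0.054, -0.035 and 0.313, and 1 of the 4 numbers, 4, correlated best with itself in both groups. With the replicate number as a block 6 organizers (5 lower, 1 higher) and 348 genes in all were called.

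The sign of values near 0 turned. The log2 fold change of Nptx2, -0.0012 in the reported fit, was 0.00042 with RLE factors, 0.0034 without a filter, 0.0022 with 1 CPM in 4 libraries, 0.067 with the sex score, 0.053 without Control replicates 1 and 4 and 0.026 with GC offsets. Adgrl1 was at 0.024 with the sex score and 0.0095 with GC offsets, and Lrfn4 at 0.021 with the sex score. Without 1 library the log2 fold change ran from -0.0053 to 0.050 for Ptprf, -0.053 to 0.021 for Adgrl1, -0.072 to 0.022 for Elfn1, -0.056 to 0.20 for C1ql3 and -0.040 to 0.052 for Nptx2. The log2 ratios of marker sums ran from -0.12 to 0.014 for glia, -0.045 to 0.050 for endothelium, -0.75 to 0.24 for skeletal muscle and -0.049 to 0.61 for erythroid cells. For sensory neurons they ran from -0.11 to -0.084, with exact permutation p-values that 3 against 4 libraries cannot bring under 0.05, and the ratio without Avil was -0.044. Of all 578 single-gene values in the alternative fits, for 34 genes and with those above included, 504 kept their direction and their side of the threshold, 36 lost and 18 gained a call, and 20 turned.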
